A study of Mus musculus with 7 samples.

Results

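Interferon-stimulated genes are the genes that cells switch on when interferon reaches them, and 9 of them were followed in the nasal tissue of mice that inhaled diesel exhaust particles (DEP). The 9 named genes were *Irf7*, *Ifit1*, *Ifit3*, *Oasl2*, *Mx1*, *Rsad2*, *Ifi44*, *Isg15* and *Usp18*. A gene entered when the transcript that a non-control probe was designed to carries its symbol in the RefSeq table. That gave 9 probes for 8 of the genes, *Isg15* having 2 of them, out of 39429 probes on the array, and all 9 probes were among the 25162 tested, which stand for 20664 names. No probe was matched to *Mx1*, so no value is given for it. The choice of genes used no measured value. *Ifit1* also stands on the study's own list of genes selected from the 4-week arrays, and its 4-week value is therefore not independent evidence of a change.

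Every array carried nasal RNA of DEP-exposed and of control BALB/c mice, all of them females. No label describes a transgene or deletion, and the age given is 6 weeks. Tissue was taken after the exposure, so the mice were older at sampling if 6 weeks is the age at its start. The exposed mice inhaled 100 ug/m3 of DEP suspended in saline for 1 hour a day on 5 days a week, for 4 weeks (4 arrays) or 8 weeks (3 arrays), and the methods give saline to the controls. RNA of exposed mice was labelled with Cy5 and RNA of controls with Cy3 throughout, with no dye swap. A dye effect particular to a probe and an effect of DEP therefore cannot be told apart within either exposure time. The arrays of 4 weeks shared 1 slide and those of 8 weeks another, which leaves duration and slide confounded. Age at sampling was not given and may go with duration as well. The number of mice behind each RNA is not given in the sources used here, and *p*-values measure only the spread between these arrays. The tissue is a mixture, in which fewer cells of a type and less RNA per cell cannot be told apart. Of the olfactory neuron markers 8 of 8 were tested, as were 7 of 8 ciliated cell markers, both of which nasal tissue should hold.

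Type I and type III interferons bind receptors whose Janus kinases phosphorylate transcription factors of the STAT family. With IRF9 these form a complex that binds the interferon-stimulated response element in the promoters of genes such as *Ifit1*, *Rsad2* and *Isg15*, whereas interferon-gamma uses another receptor and is best known for inducing genes such as the guanylate-binding proteins. In the airway mucosa the products of these genes are best known for limiting viruses.

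The response element is what many of these genes have in common, so the stretches of promoter that carry its core are shown. The letters searched were GAAA, any 2 bases and GAAA again on either strand, which read TTTC, 2 bases and TTTC on the other, from 250 bases before to 50 bases after each start in RefSeq promoters of GRCm38.p6. Of the 9 genes, 7 had a promoter in the table, *Mx1* and *Usp18* being without an entry. A gene was counted when any promoter entered for it held the core. That was so for 4 of these 7 genes (57.1%), against 1079 of all 27025 genes with a promoter (3.99%) and 464 of the 12467 tested ones (3.72%). In the lists counted further on the core was present for 17 of 41 other interferon-stimulated genes (41.5%), 11 of 14 interferon-gamma targets (78.6%) and 9 of 17 interferon ligands (52.9%). Capitals mark the matches, which overlap in *Isg15*, and each stretch is written 5′ to 3′ on the strand of its gene.

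*Ifit1*, chr19:34640760-34640838, plus strand: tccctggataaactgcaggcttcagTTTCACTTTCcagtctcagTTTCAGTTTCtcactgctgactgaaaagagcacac
*Ifit3*, chr19:34583348-34583441, plus strand: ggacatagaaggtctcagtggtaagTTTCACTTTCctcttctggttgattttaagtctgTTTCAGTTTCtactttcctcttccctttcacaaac
*Isg15*, chr4:156200850-156200921, minus strand: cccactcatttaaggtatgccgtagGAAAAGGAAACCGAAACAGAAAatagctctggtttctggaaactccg
*Rsad2*, chr12:26456538-26456597, minus strand: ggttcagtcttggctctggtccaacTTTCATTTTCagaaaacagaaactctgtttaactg

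The matches began 104 and 85 bases before the start of *Ifit1*, 156 and 122 before that of *Ifit3*, 78, 72 and 66 before that of *Isg15*, and 120 before that of *Rsad2*. The *Irf7*, *Oasl2* and *Ifi44* windows did not hold these letters, which says nothing of elements of another spelling or farther away. A match is a stretch of letters and not a measured binding site.

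The measured genes did not share a direction with DEP exposure. After 4 weeks *Ifit1*, *Ifit3* and *Usp18* were up-regulated by 1.12-fold to 1.20-fold. After 8 weeks *Isg15* was up-regulated by 1.55-fold and *Ifi44* by 1.21-fold, while *Rsad2* was 1.28-fold lower. *Oasl2* and *Irf7* passed the test at neither time. The values given are log2 ratios of DEP over control after background correction with an offset of 50 and loess normalization, a scale that understates the change of dim probes, and *p*-values are from limma with Benjamini-Hochberg adjustment over all tested probes. On this scale every fold was below 2, so none of the 8 genes met the thresholds of the study's methods (unadjusted *p* at most 0.01 and 2-fold) at either time, where 1.3% of all names did after 4 weeks and 2.94% after 8 weeks. *Ifit1*, which the study lists among genes selected at those thresholds, was thus below 2-fold here, at 1.20-fold after 4 weeks. With processed signals its log2 ratio after 4 weeks was 0.56, also below 2-fold. Why the study's selection differs was not tested.

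After 4 weeks 3 of 8 genes were called higher and 0 lower, where 21.7% of all names were called higher and 16.4% lower, and 38.1% in either direction. At an unadjusted *p* of 0.05 by limma 4 of 8 were higher and 0 lower, where 48% of all names passed in either direction, and the methods' t-test with adjustment called 0, where it called 21.2% of all names. After 8 weeks 2 of 8 were called higher and 1 lower, where 20.4% of all names were called higher and 16.9% lower, and 37.3% in either direction. Shares so close to those of the whole array are no result about the genes as a group. The median log2 ratio of the 8 genes was 0.12 after 4 weeks and 0.04 after 8 weeks, beside 0.00 and 0.01 over all names. On single arrays that median ran from 0.04 to 0.21 after 4 weeks and from 0.00 to 0.05 after 8 weeks.

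**Figure D1:**
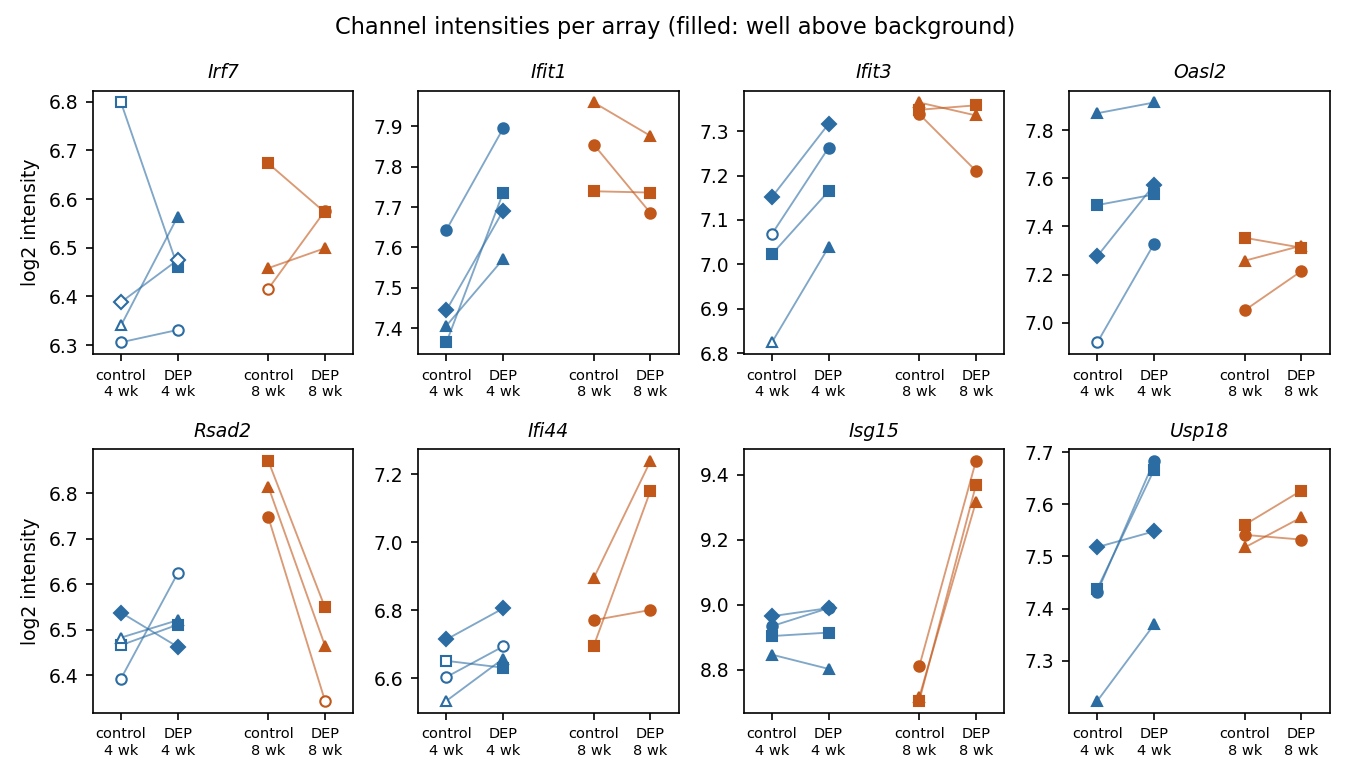
Log2 intensity of the control and the DEP channel for the brightest probe of each of the 8 genes, after loess and scaling of the mean intensity between arrays, with 1 line per array (blue 4 weeks, orange 8 weeks; circle, square, triangle and diamond are replicates 1 to 4) and open symbols where the spot was not well above background. Each panel has its own axis that does not start at 0; the DEP and control values of *Isg15* and *Rsad2* are apart after 8 weeks.

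*Irf7* encodes the transcription factor that amplifies the production of type I interferon and is itself induced by it. Its probe was dim. In the control channel it was well above background on 0 of 4 arrays after 4 weeks, and in the DEP channel on 2 of 4, so no fold is given for that time. The channel values after 4 weeks were 6.33, 6.46, 6.56 and 6.47 (log2) with DEP and 6.31, 6.80, 6.34 and 6.39 in controls, and the groups overlapped. After 8 weeks the log2 ratio was 0.16, -0.10 and 0.04 on the 3 arrays, with a mean of 0.03 (95% interval of the fit -0.21 to 0.28, adjusted *p* = 0.842). A change of *Irf7* was not detectable at this signal.

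*Ifit1* and *Ifit3* encode tetratricopeptide repeat proteins, the former of which binds viral RNA that lacks the host cap methylation, and they lie in the same gene cluster. The log2 ratio of *Ifit1* was 0.25, 0.37, 0.16 and 0.25 on the 4-week arrays and -0.17, -0.00 and -0.08 on the 8-week arrays. All 4 arrays of 4 weeks lay above all 3 of 8 weeks. The mean was 0.26 ± 0.085 (SD, n = 4) after 4 weeks (1.20-fold, adjusted *p* = 0.0067 by limma) and -0.09 ± 0.083 (SD, n = 3) after 8 weeks (adjusted *p* = 0.306). *Ifit3* gave 0.19, 0.14, 0.21 and 0.16 after 4 weeks and -0.13, 0.01 and -0.03 after 8 weeks, again without overlap between the times. Its mean of 0.18 ± 0.032 (SD, n = 4) after 4 weeks was 1.13-fold (adjusted *p* = 0.0159), and after 8 weeks it was -0.05 (adjusted *p* = 0.499). In the control channel the *Ifit3* probe was well above background on 2 of the 4 arrays of 4 weeks. Without replicate 3 of 4 weeks the adjusted *p* of *Ifit3* was 0.0641. The 2 genes have close relatives in the cluster, and how far each probe also binds those was not tested.

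*Oasl2* encodes a protein related to the oligoadenylate synthetases, enzymes that make the second messenger of RNase L. Its log2 ratios after 4 weeks were 0.41, 0.04, 0.04 and 0.30, all above 0 but far apart, and after 8 weeks 0.16, -0.04 and 0.06. The mean of 0.20 ± 0.18 (SD, n = 4) after 4 weeks did not pass the test (adjusted *p* = 0.0699), nor did the 0.06 after 8 weeks (adjusted *p* = 0.625). In the control channel the spot of replicate 1 of 4 weeks, the array with the highest ratio, was not well above background.

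*Rsad2* encodes viperin, an enzyme that makes a chain-terminating nucleotide which stops viral RNA synthesis. After 4 weeks its log2 ratios were 0.23, 0.04, 0.04 and -0.08, with no clear direction (mean 0.06, adjusted *p* = 0.431). After 8 weeks they were -0.40, -0.32 and -0.35, lower with DEP on 3 of 3 arrays. The mean of -0.36 ± 0.041 (SD, n = 3) was 1.28-fold lower with an adjusted *p* of 0.00443. On the log2 intensity scale the DEP channel lay at 6.34 to 6.55 and the control channel at 6.75 to 6.87 after 8 weeks, without overlap. The probe was dim, its signal above the local background being 15 to 26 intensity units in the DEP channel and 52 to 63 in the control channel, and the offset of 50 holds the ratio down. With the processed signals of the scanner software, which carry no such offset, the log2 ratio was -1.10 (unadjusted *p* = 0.000475 by limma). On that scale *Rsad2* met both thresholds of the study's methods after 8 weeks.

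*Ifi44* encodes a cytoplasmic protein that is widely used as a marker of interferon exposure. After 4 weeks the log2 ratios were 0.09, -0.02, 0.12 and 0.09 (mean 0.07, adjusted *p* = 0.457). After 8 weeks they were 0.03, 0.46 and 0.34, so replicate 1 stood near 0 and the other 2 arrays well above it. The mean was 0.28 ± 0.22 (SD, n = 3), 1.21-fold (adjusted *p* = 0.0328). This call rested on the later replicates, since without replicate 2 of 8 weeks the adjusted *p* was 0.198 and without replicate 3 it was 0.136.

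*Isg15* encodes a ubiquitin-like protein that is joined to other proteins and is also secreted. The brighter of its probes gave log2 ratios of 0.06, 0.01, -0.04 and 0.03 after 4 weeks and 0.63, 0.66 and 0.60 after 8 weeks. The 3 arrays of 8 weeks were close to each other and stood clear of every 4-week array. The mean was 0.01 ± 0.042 (SD, n = 4) after 4 weeks (adjusted *p* = 0.843) and 0.63 ± 0.032 (SD, n = 3) after 8 weeks (1.55-fold, SE 0.048, adjusted *p* = 5.7e-05), the largest absolute ratio among the 8 genes at either time on this scale. With processed signals *Rsad2* was larger (-1.10 against 0.71 for *Isg15*). In the scan itself, before any correction, the median signals after 8 weeks were 556, 566 and 456 intensity units with DEP against 465.5, 475 and 439 in the controls of the same arrays. After 4 weeks they were 474, 561, 451.5 and 459 with DEP against 564, 540, 512.5 and 548.5. Normalized, the DEP channel of 8 weeks lay at 9.32 to 9.44 (log2) and the control channel at 8.70 to 8.81.

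The second *Isg15* probe did not show the same values. It was well above background on 1 of 4 arrays in each channel after 4 weeks and on 2 of 3 after 8 weeks. Its log2 ratio was -0.22 after 4 weeks (lower on 4 of 4 arrays, adjusted *p* = 0.011) and 0.09 after 8 weeks (adjusted *p* = 0.265). The 2 probes thus disagreed at both times, although for both the ratio was higher after 8 weeks than after 4 weeks, by 0.62 and by 0.30 (adjusted *p* = 0.000462 and 0.019). With the mean of both probes in place of the brighter, *Isg15* was 0.36 after 8 weeks.

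*Usp18* encodes the protease that takes ISG15 off its targets and also damps the receptor of type I interferon. Its log2 ratios were 0.25, 0.23, 0.15 and 0.03 after 4 weeks, a mean of 0.16 ± 0.10 (SD, n = 4) and 1.12-fold (adjusted *p* = 0.0381). After 8 weeks they were -0.01, 0.07 and 0.06 (mean 0.04, adjusted *p* = 0.663). The 4-week call rested on single arrays, the adjusted *p* being 0.0936, 0.14 and 0.0898 without replicate 1, 2 and 3. Of the enzymes that join ISG15 to proteins, the activating enzyme *Uba7* was 0.22 after 4 weeks (adjusted *p* = 0.0272, and 0.0524 and 0.0765 without replicate 1 and 3) and -0.10 after 8 weeks (adjusted *p* = 0.308). The conjugating enzyme *Ube2l6* was 0.20 and -0.20 and passed the test at neither time (adjusted *p* = 0.0867 and 0.138), and the ligase *Herc6* was well above background on no array.

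**Figure D2:**
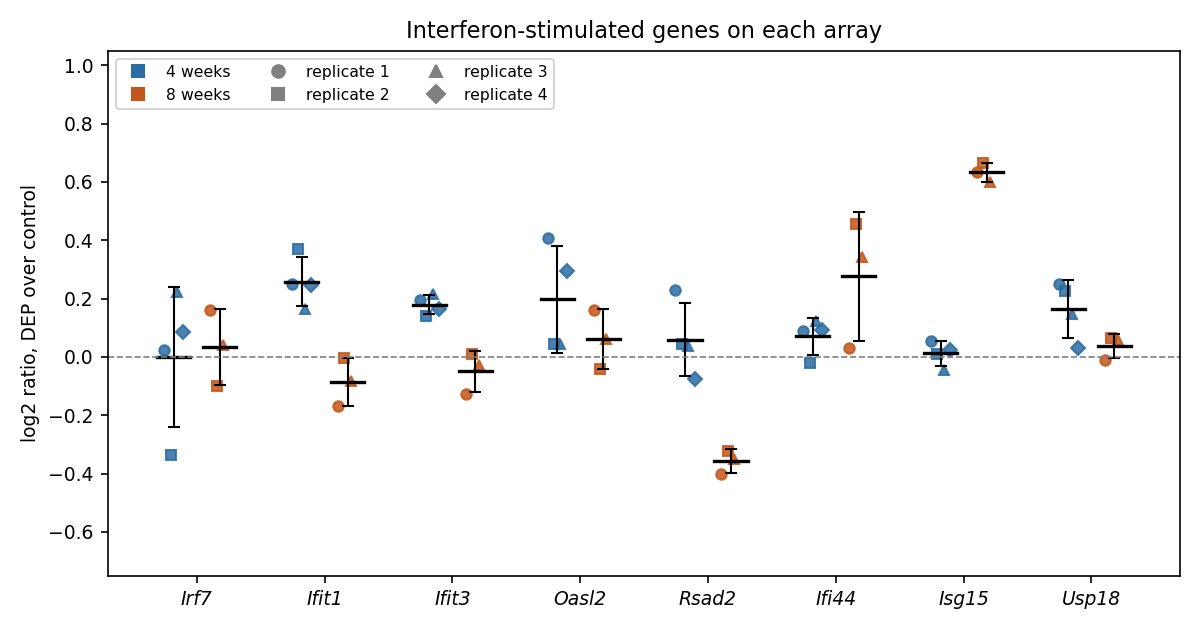
Log2 ratio of DEP over control on each array for the brightest probe of each gene, blue for 4 weeks (n = 4) and orange for 8 weeks (n = 3), with the mean as a black line and the SD as a bar. *Isg15* stands at 0.60 to 0.66 and *Rsad2* at -0.40 to -0.32 after 8 weeks, while *Ifit1* and *Ifit3* are above 0 on all 4 arrays of 4 weeks.

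The difference between the exposure times was tested in the same fit. *Isg15* was higher after 8 weeks than after 4 weeks by 0.62 (95% interval 0.47 to 0.77, adjusted *p* = 0.000462). *Rsad2* was lower by 0.42 (adjusted *p* = 0.00978), *Ifit1* by 0.34 (adjusted *p* = 0.0147) and *Ifit3* by 0.23 (adjusted *p* = 0.0376). The *Ifit3* difference did not pass without replicate 2, 3 or 4 of 4 weeks, nor with any of the 8-week arrays left out (adjusted *p* 0.07 to 0.0949), and that of *Ifi44* passed without replicate 1 of 8 weeks (0.33, adjusted *p* = 0.0278). These 4 of 8 genes, 1 higher and 3 lower, compare with 30.9% of all names called in this contrast, 14.8% higher and 16.1% lower. *Ifi44* (0.21), *Oasl2* (-0.14), *Usp18* (-0.13) and *Irf7* (0.03) did not pass (adjusted *p* = 0.193 to 0.873). The 95% interval of *Ifi44* ran from -0.05 to 0.46. By channel, the control mean of *Rsad2* was 6.47 (log2) after 4 weeks and 6.81 after 8 weeks, and its DEP mean 6.53 and 6.45. For *Ifit1* the control means were 7.46 and 7.85 and the DEP means 7.72 and 7.77, and for *Ifit3* 7.02 and 7.35 against 7.20 and 7.30. In these 3 genes the control channel thus differed more between the times than the DEP channel did, whereas in *Isg15* the DEP channel differed more (8.92 and 9.38, against 8.91 and 8.74 in controls). Levels between the times also differ by slide, and may differ by age at sampling, and were not tested. A dye effect that is equal on all arrays drops out of this difference, whereas the slide does not.

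Among themselves the genes did not follow a single course over the 7 arrays. The log2 ratios of *Rsad2* had a Pearson *r* of 0.81 with the median of the other genes and those of *Isg15* an *r* of -0.72, and the arrays share their slide within a time. Among 11259 names whose log2 ratios spanned at least 0.5, the 5 most like the median of the 8 genes were the transcripts ENSMUST00000163531 and AK017263 and the genes *Ipmk*, *Olfr681* and *Il20*, with *r* of 0.965 to 0.971 over 7 arrays. *Uba7* stood at rank 12 (*r* = 0.951). These correlations are a description and carry no test.

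A list of 50 other interferon-stimulated genes was counted beside them, of which 48 had a probe and 42 were tested. After 4 weeks 12 were called higher and 5 lower, and after 8 weeks 9 higher and 5 lower, so that 28.6% and 21.4% were called higher, against 21.7% and 20.4% of all names, and 11.9% lower at either time, against 16.4% and 16.9%. The median of the list was 0.09 after 4 weeks and 0.01 after 8 weeks. Relatives of the genes above were among the largest values. *Oasl1*, which restrains the translation of IRF7, had log2 ratios of 0.83, 0.69, 0.64 and 0.62 after 4 weeks and -0.26, -0.32 and -0.39 after 8 weeks. Its mean was 0.70 ± 0.094 (SD, n = 4), 1.62-fold, and then -0.33 ± 0.064 (SD, n = 3), 1.25-fold lower (adjusted *p* = 0.0044 after 8 weeks). *Ifit1bl1* and *Ifit1bl2*, close paralogs in the *Ifit* cluster whose probes may share targets, were 0.55 and 0.60 after 4 weeks, where *Ifit1bl1* was well above background on 1 of 4 arrays in the control channel. On the single arrays *Ifit1bl2* was 0.89, 0.75, 0.71 and 0.04, so replicate 4 stood near 0. After 8 weeks the 2 paralogs were -0.24 and 0.04 and did not pass the test.

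The genes of this list that were called highest after 8 weeks were others. *Ifi44l*, a relative of *Ifi44*, was 0.71, 0.40 and 0.73 on the arrays of 8 weeks, a mean of 0.62 (adjusted *p* = 0.0008). *Ifi27l2a*, which encodes a small interferon-induced protein, fell by 0.37 after 4 weeks and rose by 0.56 after 8 weeks, in that direction on all 7 arrays. *Ifi27* rose by 0.54 and *Eif2ak2*, which encodes the RNA-dependent kinase PKR, by 0.45 after 8 weeks. *Adar*, an RNA-editing enzyme with an interferon-inducible promoter, was 0.37 after 4 weeks and -0.42 after 8 weeks (adjusted *p* = 0.0197 and 0.0224). The 8-week value of *Adar* did not pass without replicate 2 or 3 (adjusted *p* = 0.0951 and 0.117).

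**Figure D3:**
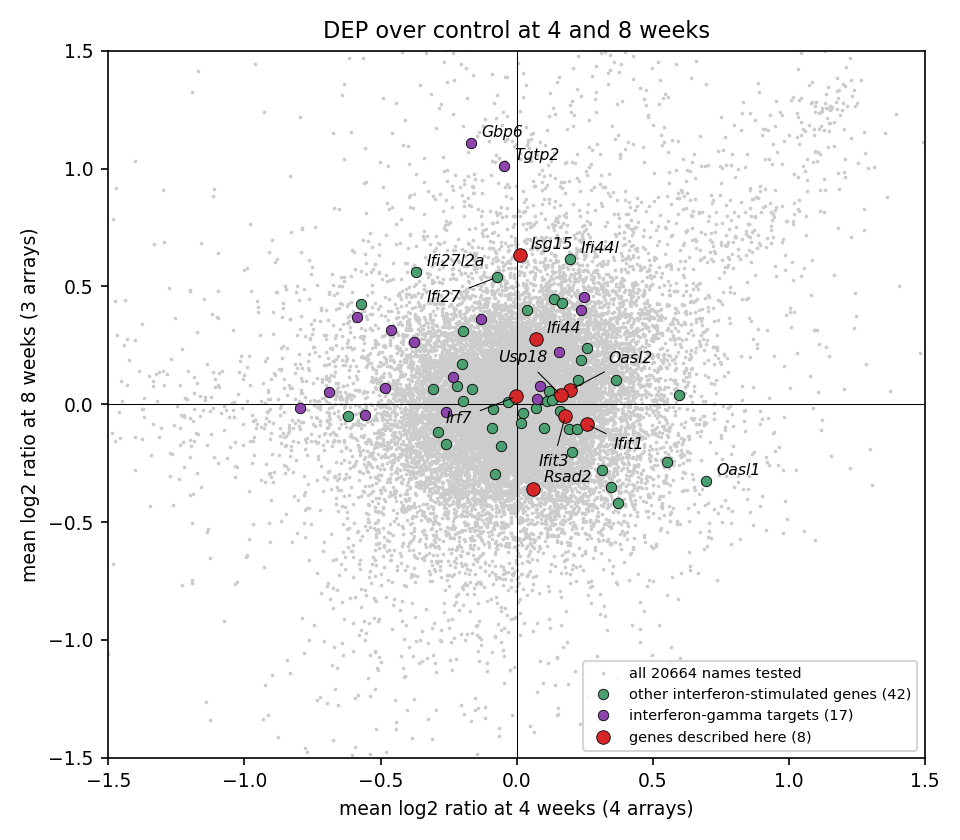
Mean log2 ratio of DEP over control after 4 weeks (horizontal) and 8 weeks (vertical) for all 20664 names tested (grey), the 8 genes described here (red), 42 other interferon-stimulated genes (green) and 17 interferon-gamma targets (purple); 250 names lie outside the range of ±1.5 that is drawn. The red and green points spread around 0 in both directions, *Isg15* being the highest red point and *Rsad2* the lowest, and *Gbp6* and *Tgtp2* lie above 1 after 8 weeks.

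Targets of interferon-gamma, a related group that the choice above leaves out, had other values. Of 22 listed genes 17 were tested. After 4 weeks 2 were called higher and 8 lower (47.1% lower, against 16.4% of all names), and after 8 weeks 7 were higher and 0 lower (41.2% higher, against 20.4%). The median of the list was -0.23 and then 0.22. The 2 genes higher after 4 weeks, *Gbp10* (0.25) and *Iigp1* (0.24), were higher after 8 weeks as well (0.45 and 0.40). Both were well above background on 1 of 4 arrays in the control channel of 4 weeks. Their 4-week calls did not hold in every fit with an array left out (adjusted *p* 0.0622 to 0.0879 by limma where lost). After 4 weeks the guanylate-binding proteins *Gbp2* and *Gbp3* were -0.56 and -0.49 and passed the test. The chemokine gene *Cxcl10* was -1.25, -0.35, -0.29 and -0.46 on the 4 arrays, a mean of -0.59, and -0.37 without replicate 1 (adjusted *p* = 0.00498). *Ciita*, the master regulator of MHC class II, was -0.12, -1.43, -1.36 and -0.28, a mean of -0.80, on a probe well above background on 1 of 4 arrays with DEP and 2 of 4 in controls, and it did not pass without replicate 2 or 3 (adjusted *p* = 0.0868 and 0.0825). After 8 weeks *Gbp6* was 1.14, 1.00 and 1.19 on the 3 arrays and the GTPase gene *Tgtp2* 0.85, 1.06 and 1.13. Both were past 2-fold, which none of the 8 genes above reached on this scale. The count called higher after 8 weeks ran from 3 to 9 over the alternatives and that called lower after 4 weeks from 4 to 9. The 0 lower after 8 weeks was also 0 at an unadjusted *p* of 0.05 and by the methods' t-test, and 1 with median centring. From 4 to 8 weeks 10 of 17 were called higher (5 to 10 over the alternatives), where 14.8% of all names were, and 0 lower, as at an unadjusted *p* of 0.05. Of 9 class I antigen processing genes tested, 4 were lower after 4 weeks, *B2m* (-0.34) and *H2-K1* (-0.33) among them. After 8 weeks 3 were higher and 1 lower. *Tap2* and *H2-D1*, also lower after 4 weeks, each lost the call in some fits with an array left out (adjusted *p* 0.0517 to 0.123 by limma). The genes higher after 8 weeks lost it too, *B2m* without replicate 1 or 2 and *Tap2* and *Nlrc5* without any 1 array (0.0525 to 0.184). The methods' t-test with adjustment called 2 lower after 4 weeks, and 2 higher and 1 lower after 8 weeks.

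Of the ligands little could be measured. Of 17 listed interferon genes 14 had a probe and 8 were tested, and *Ifnb1*, *Ifng*, *Ifne*, *Ifnk* and *Ifna4* were well above background on no array. None of the 8 was called after 4 weeks by limma, and 0 passed at an unadjusted *p* of 0.05 or by the methods' t-test. After 8 weeks *Ifna14* (0.20, adjusted *p* = 0.0478) and *Ifnl3* (0.19, adjusted *p* = 0.0498) were just past the threshold and did not pass with any 1 of the 3 arrays left out (adjusted *p* 0.0773 to 0.226), and the *Ifna* genes are so alike that a probe cannot be held to 1 of them. Of 6 receptor genes, *Ifnar1* (0.37, adjusted *p* = 0.0034) and *Ifngr1* (0.41, adjusted *p* = 0.0055) were higher after 8 weeks. After 4 weeks *Ifnlr1* was higher (0.26) and *Il10rb*, whose product pairs with it, lower (-0.16). Neither passed in every fit with an array left out, *Ifnlr1* not without replicate 1, 3 or 4 (adjusted *p* 0.0574 to 0.0614) and *Il10rb* not without replicate 2 or 4 (0.0815 and 0.0575).

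Of the signal genes between receptor and promoter, 9 of 11 were tested. *Irf5* (-0.35, and -0.23 with an adjusted *p* of 0.0552 without replicate 1 and 0.072 without replicate 3) and *Tbk1*, the kinase that activates IRF3 (-0.29), were lower after 4 weeks, and after 8 weeks 0 of 9 were called in either direction by limma or by the methods' t-test, with 2 higher and 1 lower at an unadjusted *p* of 0.05. *Stat2* and *Irf9* were called at neither time. Of 12 sensors and adaptors tested, the endosomal receptors *Tlr7* (0.49 and 0.27) and *Tlr9* (0.42 and 0.51) were higher after 4 and after 8 weeks, *Tlr7* after 8 weeks not without replicate 1 or 2 (adjusted *p* = 0.0701 and 0.0807). *Cgas*, the sensor of cytosolic DNA, was higher after 8 weeks (0.41), and *Myd88* (-0.44) and *Sting1* (-0.32) were lower after 4 weeks. The cytosolic RNA sensors *Ddx58* (RIG-I) and *Ifih1* (MDA5) were 0.05 and 0.03 after 4 weeks and -0.03 and 0.20 after 8 weeks and were not called.

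**Figure D4:**
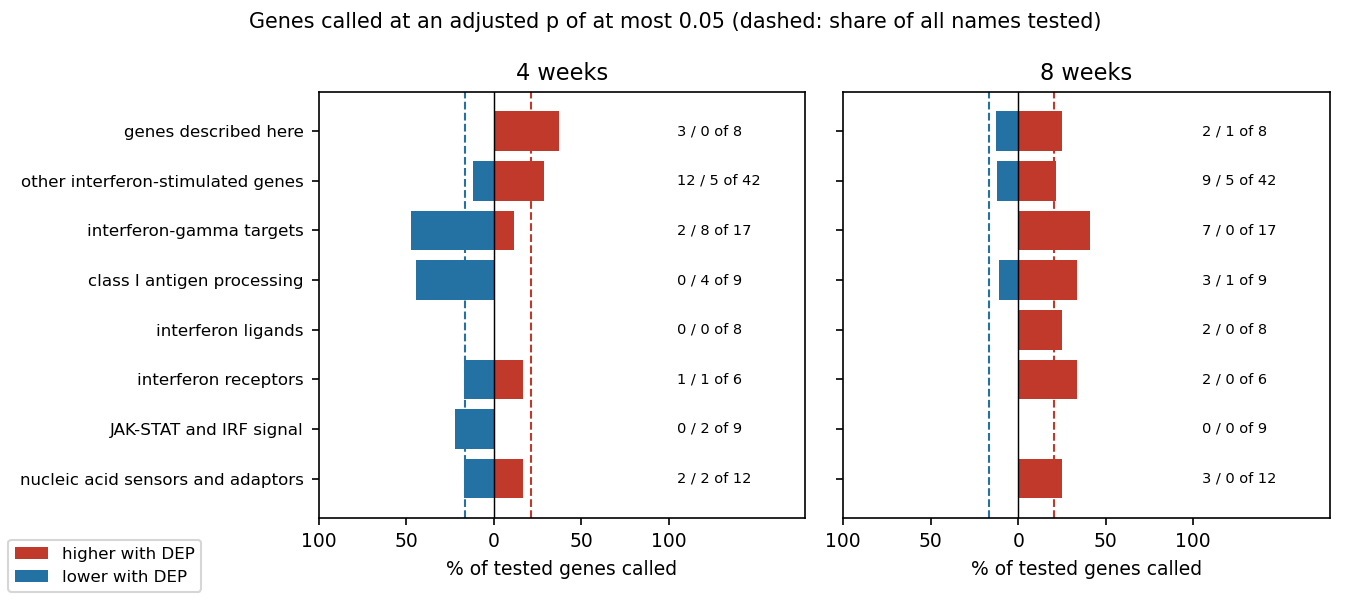
Share of the tested genes of each list called higher (red, to the right) or lower (blue, to the left) with DEP at an adjusted *p* of at most 0.05, after 4 and 8 weeks, with the counts higher / lower of tested at the right of each panel. Dashed lines give the share over all 20664 names, and interferon-gamma targets pass the blue line after 4 weeks (8 of 17) and the red line after 8 weeks (7 of 17).

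Markers of some cell types were called as well, and their part in the values above was not tested. Of all names, 21.7% were called higher and 16.4% lower after 4 weeks, and 20.4% and 16.9% after 8 weeks. Shares near these, such as the 20% of macrophage and monocyte markers higher after 8 weeks, are no result about a cell type. Of 8 markers of mature olfactory neurons 6 were higher after 4 weeks and 7 lower after 8 weeks, *Omp*, the olfactory marker protein, being 0.89 and then -0.43. The mean intensity of that list lay at 14.2 to 14.3 (log2) in the DEP channel and 13.3 to 13.5 in the control channel after 4 weeks, and at 13.6 and 14.0 to 14.2 after 8 weeks. Of 4 B cell markers tested, 1 was higher and 2 lower after 4 weeks and 4 of 4 were higher after 8 weeks. The B cell list lay at 7.81 to 8.02 in the DEP channel of 8 weeks and at 7.30 to 7.34 in the control channel, and at 7.17 to 7.40 and 7.12 to 7.25 after 4 weeks, while *Cd79a* was well above background on 1 array. Of 7 T and NK cell markers 4 were higher and 0 lower after 8 weeks, with the list at 8.42 to 9.02 and 8.24 to 8.34. After 4 weeks 2 were higher and 1 lower, with the list at 8.20 to 8.50 and 7.97 to 8.14. Most of the 8-week calls rested on single arrays. *Cd2* did not pass without replicate 2 or 3, *Cd3d* not without 1 or 3 and *Nkg7* not without 1 or 2 (adjusted *p* 0.0586 to 0.15 by limma). The methods' t-test with adjustment called 1 of the 7 higher after 8 weeks. *Cd3g*, *Gzmb* and *Ncr1* were well above background on no array. Of 6 genes listed as markers of plasmacytoid dendritic cells, the main producers of type I interferon in blood, 1 was higher and 2 lower after 4 weeks and 3 higher and 2 lower after 8 weeks. *Siglech* was higher at both times (0.77 and 0.58), *Ly6d* (-0.43 and 0.24) and *Klk1* (-0.23 and 1.49) were lower and then higher, *Cox6a2* (-0.68) and *Pacsin1* (-1.05) were lower after 8 weeks, and *Ccr9* was called at neither time. That list lay at 13.3 to 13.4 in either channel after 4 weeks and at 13.1 to 13.2 with DEP and 13.3 to 13.4 in controls after 8 weeks. This is far above the B cell list, so the values cannot be held to plasmacytoid dendritic cells. Which cells of the tissue gave them was not tested. Of 10 macrophage and monocyte markers 3 were higher and 2 lower after 4 weeks and 2 higher and 0 lower after 8 weeks, with the list at 10.6 to 10.8 with DEP and 10.3 in controls, and then at 10.8 to 11.1 and 10.5 to 10.7. Of 6 neutrophil markers 1 was higher and 4 lower at either time, and of 7 ciliated cell markers 3 were higher and 1 lower after 4 weeks and 3 higher and 0 lower after 8 weeks.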

How the data were processed

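Nasal RNA of DEP-exposed (Cy5) and control (Cy3) mice was hybridised to Agilent mouse 4x44K arrays, 4 after 4 weeks and 3 after 8 weeks, grouped by the labels. The authors deposited the scanner output of Feature Extraction, in which median signals and local backgrounds are intensity values without background subtraction or normalization. Processed intensity values in the deposited files, background-subtracted and dye-normalized by the software, served as an alternative. The deposited log ratios and the software named in the study's methods for normalization were not used here.

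With limma 3.58.1 in R 4.3.3, background was corrected by normexp (offset 50), its parameters being fitted without spots that the scanner software marks as background outliers and applied to every spot. Log2 ratios of Cy5 over Cy3 were normalized within arrays by loess, with control spots at weight 0. Non-uniform spots were dropped, replicate spots averaged, and a probe was tested when at least 3 of 7 arrays had it well above background in the DEP or the control channel (25162 of 39429). Names came from the RefSeq genes of GRCm38.p6 through the probe's accession for 28330 probes, and other probes kept the name in the files. The array design names build mm9, and no coordinates were carried between builds. The 7 arrays were fitted together with a mean for each duration. Both means and their difference were tested two-sided, and *p*-values were adjusted over all tested probes by Benjamini-Hochberg, with 0.05 as the threshold. A gene takes the value of its brightest tested probe. Channel values were taken after loess and Aquantile scaling.

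Well above background were 18601 to 25069 probes per array with DEP and 16985 to 26927 in controls, and 0 spots were saturated. The number of arrays limits the precision. Across tested probes, log2 ratios of arrays of the same time had Pearson correlations of 0.44 to 0.49 after 4 weeks and 0.71 to 0.88 after 8 weeks. The steps were tested on simulated arrays. The genes, lists, and the rule for naming were chosen with earlier results of these data known. Named were all 9 genes with each probe, and the 5 names most like the median of the genes. Of each list, up to 4 called genes per time with the largest ratios were named. Of the ligand, receptor, signal and sensor lists further genes were named, some of them not called, but not every gene of these lists. Outside this rule, *Uba7*, *Ube2l6* and *Herc6* were named for their role and the markers below background after their values were seen. Alternatives were another offset, a normexp fit on all spots, median centring, processed signals, other filters, the mean of a gene's probes, each array left out, each time fitted alone, the methods' t-test and a replicate block.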

Additional observations from a re-analysis of the deposited data

Results flagged for a closer look

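Of the 8 genes, 4 had effects of DEP that differed between the exposure times by limma's test of the difference (8 weeks minus 4 weeks, adjusted *p* from 0.000462 to 0.0376). The log2 ratio of *Isg15* was higher after 8 weeks by 0.62, from 0.01 to 0.63. That of *Rsad2* changed by -0.42, from 0.06 to -0.36. Those of *Ifit1* and *Ifit3* changed by -0.34 and -0.23, from 0.26 to -0.09 and from 0.18 to -0.05. Exposure time, slide and any difference in age at sampling cannot be told apart in these values. No array stood apart from the other 3 by Dixon's test for any of the 8 genes or their median after 4 weeks, and the groups of 3 arrays were not tested.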

How the results depend on the processing

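*Isg15* after 8 weeks kept its direction and side of the threshold in all 12 alternatives (0.35 to 0.71, adjusted *p* 1.8e-05 to 0.00643) and *Rsad2* in all 11 that could be fitted (-1.10 to -0.33, 0.0027 to 0.0368). *Ifit1* after 4 weeks (0.18 to 0.56) lost its call with median centring (adjusted *p* = 0.0508) and the methods' t-test (0.105), *Ifit3* in 4 of 12 alternatives, *Usp18* in 8 of 13, and *Ifi44* after 8 weeks in 4 of 11. Of 305 gene values under alternatives, 253 kept direction and side, 29 lost and 6 gained a call, and 17 changed sign, 0 of them called. The genes called higher after 4 weeks, 3 as given, were 1 with the normexp fit on all spots, 0 with median centring, 6 with processed signals and 0 with the methods' t-test, and from 1 (without replicate 3 of 4 weeks) to 3 with an array left out. Those called higher after 8 weeks, 2 as given, were 1 with a stricter filter (above background in each channel of every array), 1 with no filter, 1 with the methods' t-test and from 1 (without replicate 2 or 3 of 8 weeks) to 2 with an array left out. Those called lower after 8 weeks, 1 as given, were 2 with median centring, 2 with processed signals and 0 with the stricter filter, which leaves *Rsad2* untested. In the difference, 3 were lower as given, 1 with the fit on all spots and 1 with the stricter filter, and 1 was higher, or 2 without replicate 1 of 8 weeks. Sign changes of values that were not called follow, those of *Irf7* after 4 weeks resting on a control channel not well above background and giving no fold. *Irf7* after 4 weeks was 0.078 (all spots), 0.0083 (offset of 16), 0.029 (median centring) and 0.31 (processed signals), and -0.075 to 0.11 (highest without replicate 2) with an array left out. After 8 weeks it was -0.032 with processed signals and -0.030 (without replicate 1) to 0.10 with an array left out. Its difference was -0.035 (all spots), -0.34 (processed signals) and -0.079 to 0.11 with an array left out, below 0 without replicate 2 of 4 weeks and without replicate 1 of 8 weeks. *Isg15* after 4 weeks was -0.080 with median centring, -0.10 with the mean of its probes and -0.0027 (without replicate 1) to 0.030 with an array left out. With median centring after 8 weeks *Oasl2* was -0.033, *Usp18* -0.10 and the median of the genes -0.067, and with processed signals *Ifit3* was 0.025. Median centring put the median of all names at -0.13 to -0.08 on the 8-week arrays and processed signals at 0.07 to 0.15 on the 4-week arrays. The cause of these changes was not tested. Over the alternatives, the other interferon-stimulated genes called higher after 4 weeks ran from 4 to 16 and those called lower after 8 weeks from 2 to 11.

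Equal replicate numbers of the times did not pair the arrays (correlations of deviations -0.0067 to 0.0168, and 1 of 3 4-week arrays closest to its own number). With the replicate block the genes called lower in the difference were 1, *Rsad2* (-0.46, adjusted *p* = 0.0475), beside *Isg15* as the 1 higher (0.63, 0.0191). Dim probes (*Irf7*, *Rsad2*, *Ifi44*, *Ciita* and the second of *Isg15*) limit what these arrays can show, as does the control channel of *Ifit3* after 4 weeks.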
